A study of Mus musculus with 7 samples.

Results

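Genes of homologous recombination, of the Fanconi anaemia pathway and of DNA mismatch repair were examined in cells labelled as granule neuron precursors of the mouse cerebellum. The set was chosen by name, with earlier results of these data known, so shares of its members are descriptions and not independent support. It held 31 genes, of which 30 had at least 1 probe set assigned to that gene alone. These gave 68 of the 45037 probe sets of the array that were not controls. The remaining member, Xrcc2, was not analysed here. Each gene was fitted through its brightest probe set, and all 30 were among the 11089 genes that passed a filter on dim signal set without regard to group. For 29 of the 30 the signal lay at or above the array's median on all 7 arrays, and for Bard1 on 5 of them.

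The cells came from mice labelled Math1-Cre/Ptc-loxp/Nestin-CFP. Math1-Cre acts in cells that express Math1 (Atoh1), so Ptch1, whose product holds Hedgehog signalling in check, is removed in the granule neuron lineage of both groups, and a fluorescent Nestin reporter was used to sort the cells into Nestin-positive and Nestin-negative fractions. Total RNA of freshly isolated, untreated cells was hybridised to 1 Affymetrix array per sample, 4 from the Nestin-positive fraction, numbered 1, 3, 4 and 5, and 3 from the Nestin-negative fraction, numbered 1, 4 and 5. The samples are labelled medulloblastoma at postnatal day 7, whereas the text of the series gives postnatal day 4. Nothing in the labels says that samples came from separate animals, so p-values measure the spread between these samples, which may be technical, and precision is limited by the small number of arrays.

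The sort was visible in Nes, the gene of Nestin, which had intensities of 478, 829, 722 and 543 in Nestin-positive cells (replicates 1, 3, 4 and 5), against 179, 174 and 217 in Nestin-negative cells (replicates 1, 4 and 5). Since Nestin defined the fractions, this checks the labels only. For the labelled cell type, 9 markers of granule neuron precursors were examined, among them Atoh1, Barhl1, Zic1 and Pax6. All 9 lay at or above the array median on every array of both fractions. The 14 measured markers of differentiating granule neurons and the 4 of the oligodendrocyte lineage did so too. Detection at this level therefore does not single out a cell type.

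Homologous recombination repairs DNA breaks and stalled replication forks by copying an intact sister chromatid. Broken ends are trimmed to single strands, BRCA2 and its partners prepare these for pairing with the intact copy, and helicases and translocases carry the exchange through. The Fanconi anaemia pathway senses crosslinks between DNA strands: a core complex attaches ubiquitin to the FANCD2-FANCI pair, which directs the crosslink to nucleases and then to recombination. Mismatch repair corrects errors of the replicative polymerases. These pathways are most active in cells that copy their DNA, and granule neuron precursors divide rapidly in the young cerebellum.

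The comparison asks whether repair genes differ between the Nestin-positive and the Nestin-negative fraction. The fractions also differed in markers of other cell types, given below, so this is not a contrast of precursors alone. The repair genes lay higher in the Nestin-positive fraction by a small amount. Their median log2 change, Nestin-positive over Nestin-negative, was 0.33, where the median of all 11089 genes tested was -0.03, and 29 of 30 changes were above 0, against 45.5% of all genes. The single member below 0 was Fancg. Values of the fractions did not overlap for 11 members, all higher in Nestin-positive cells (36.7%, where 5.87% of all genes did not overlap and were higher), and for no member in the other direction (9.11% of all genes). In bulk samples, a change in the share of cells that express a gene and a change in RNA per cell cannot be told apart.

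None of these differences passed on its own when the arrays were taken as unpaired. Limma called 0 of the 30 members at an adjusted p under 0.05, with adjusted p-values from 0.112 for Rad50 to 0.992 for Fance, in a fit that called 0.171% of all genes higher and 0.577% lower. At an unadjusted p under 0.05 there were 13 members, all higher (43.3%, against 5.33% of all genes higher and 9.09% lower). Replicate numbers 1, 4 and 5 occur in both fractions, and same-numbered samples deviated together, which is why the numbers were taken as pairs. The pairing is an assumption drawn from these same values, not from the labels. With the replicate number as a block in the fit, 10 of the 30 members were higher (33.3%, where 3.58% of all genes were called higher) and 0 lower (6.39% of all genes), with a median log2 change of 0.34. The 10 were Brca2, Xrcc3, Rad51ap1, Rad54l, Rad50, Nbn, Blm, Fancl, Fanci and Msh3. Their number rests on each pair, and was 2 without the pair of replicate 1 (Rad54l and Fanci) and 3 without that of replicate 5 (Brca2, Xrcc3 and Fanci). Without that of replicate 4 the number was 12, including Brip1, Fancd2 and Msh6, which were not among the 10. It was 5 when the arrays were also quantile normalized, 7 with the mean of a gene's probe sets or with dim values raised to the array median, and 1, Fanci, when the variance was modelled without an intensity trend.

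**Figure D1:**
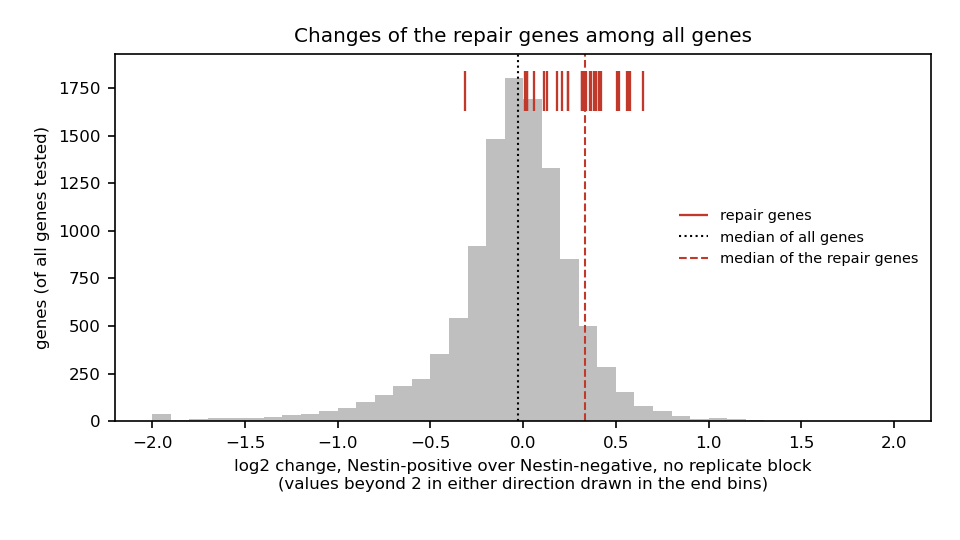
Histogram of the log2 change, Nestin-positive over Nestin-negative without the replicate block (x axis), over the 11089 genes tested (y axis, number of genes), with a red tick for each of the 30 repair genes. The dashed red line at 0.33 is the median of the repair genes and the dotted line at -0.03 that of all genes; 1 tick lies below 0.

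**Figure D2:**
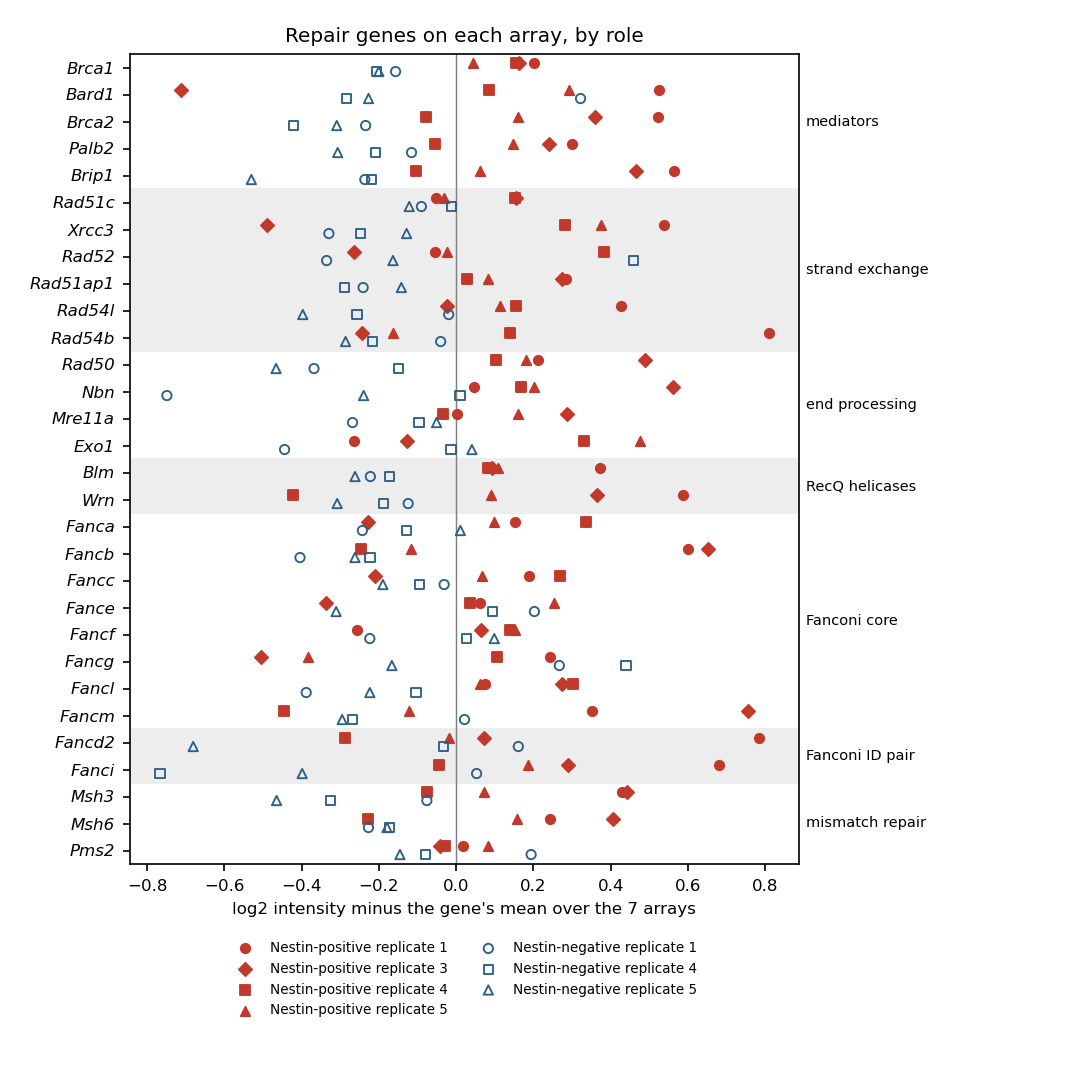
Log2 intensity of each repair gene on each array minus the gene's mean over the 7 arrays (x axis), with genes in rows by role (y axis); filled red symbols are Nestin-positive and open blue symbols Nestin-negative arrays, and the symbol shape gives the replicate. For 11 genes all red symbols lie right of all blue ones, and Nestin-positive replicate 1 is the highest array for 13 of the 30 genes (not counted over all genes).

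Promoter sequence was available for 24 members in RefSeq's mouse promoters (build GRCm38.p6, 250 bases before and 50 after a start site) and was searched on both strands for letters known from genes of dividing cells. E2F factors switch on many replication and repair genes as cells enter S phase, and their site was searched as TTTCCCGC, TTTGGCGC, TTTCGCGC or TTTGCCGC. It stood in the window of 6 of the 24 members (25.0%): Bard1, Brca2, Fancg, Msh3, Msh6 and Rad51c. By gene, 5.02% of the 9013 genes tested that had a promoter held it. By promoter, it stood in 26.9% of the members' 26 promoters and in 2.26% of all 32851. The CCAAT box, bound by NF-Y, stood in 16 of the 24 members (66.7%), against 43.6% of the genes tested. By promoter these shares were 65.4% of the members' and 37.4% of all. The CHR element, searched as TTTGAA, stood in 1 member, Bard1 (4.17%), against 13.9% of the genes tested. By promoter these shares were 3.85% of the members' and 17.9% of all. A match is a description of letters and not a site in use.

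The promoters of 4 members are shown because they set the matches beside unlike changes, each as the 250 bases before the start site, with E2F and CCAAT letters in capitals. Brca2 (chr5:150522371-150522620, plus strand) held 1 E2F match on the minus strand, with its first base at -168 from the start site, and Msh3 (chr13:92355004-92355253, minus strand) held a pair of overlapping matches at -202 and -198. Both genes were higher in Nestin-positive cells with the replicate block. Xrcc3 (chr12:111813880-111814129, minus strand) was also higher with the block and held no E2F match but 6 CCAAT boxes, 2 of them adjoining. Fancg (chr4:43010302-43010551, minus strand), the member with a negative change, held 1 E2F match at -52.
Brca2: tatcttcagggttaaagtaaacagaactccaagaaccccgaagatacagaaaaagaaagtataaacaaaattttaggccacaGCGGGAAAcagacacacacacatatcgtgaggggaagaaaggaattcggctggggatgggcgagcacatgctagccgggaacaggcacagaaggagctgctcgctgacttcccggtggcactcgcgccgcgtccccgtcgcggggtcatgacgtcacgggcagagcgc
Msh3: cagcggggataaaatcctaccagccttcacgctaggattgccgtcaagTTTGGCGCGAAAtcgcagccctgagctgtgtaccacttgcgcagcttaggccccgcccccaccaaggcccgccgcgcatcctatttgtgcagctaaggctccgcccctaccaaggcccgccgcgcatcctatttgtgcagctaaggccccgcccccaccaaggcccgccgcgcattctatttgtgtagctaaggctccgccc
Xrcc3: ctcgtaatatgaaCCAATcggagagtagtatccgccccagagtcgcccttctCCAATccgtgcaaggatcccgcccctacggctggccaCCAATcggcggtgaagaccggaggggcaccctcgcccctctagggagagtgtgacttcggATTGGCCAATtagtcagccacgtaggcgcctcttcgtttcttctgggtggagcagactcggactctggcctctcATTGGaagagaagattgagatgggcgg
Fancg: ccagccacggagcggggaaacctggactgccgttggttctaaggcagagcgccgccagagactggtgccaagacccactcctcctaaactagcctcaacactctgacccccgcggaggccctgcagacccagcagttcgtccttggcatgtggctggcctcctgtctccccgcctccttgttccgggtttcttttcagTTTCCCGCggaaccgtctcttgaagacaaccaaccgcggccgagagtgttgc

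Among the BRCA genes and their partners, called mediators of recombination, Brca2 was the member past the threshold with the block. BRCA2 acts on the trimmed single strands, and its loss disables homologous recombination. Its probe set had intensities of 1516, 1354, 999 and 1179 in Nestin-positive cells (replicates 1, 3, 4 and 5), against 897, 788 and 852 in Nestin-negative cells (replicates 1, 4 and 5). Every Nestin-positive array thus lay above every Nestin-negative one, with replicate 4 the lowest of its fraction in both. The log2 change was 0.56 ± 0.16 (SE; limma, adjusted p = 0.133), and with the block 0.52 ± 0.12, or 1.44-fold (adjusted p = 0.0054). In 8 settings that used the block (as fitted, with 4 changes of processing, and without each of the 3 pairs), Brca2 was called in 6.

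Brca1, the ubiquitin ligase that acts before BRCA2 and favours recombination over end joining, was the most even of the mediators within each fraction. It had intensities of 2073, 2018, 2005 and 1856 in Nestin-positive cells, against 1617, 1563 and 1569 in Nestin-negative cells. The fractions did not overlap, yet the change of 0.33 ± 0.10 (SE, log2) had an adjusted p of 0.172 with limma, and 0.0554 with the block. The other 3 Brca1 probe sets that passed the filter were dimmer, with log2 differences between the group means of 0.31 to 0.88 and overlapping fractions.

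Palb2, which bridges BRCA1 and BRCA2, and the helicase gene Brip1 (also FANCJ), a partner of BRCA1, were likewise apart between fractions but not past the threshold. Palb2 had intensities of 494, 474, 386 and 444 in Nestin-positive cells, against 370, 347 and 324 in Nestin-negative cells. Brip1 had 257, 240, 162 and 181 in Nestin-positive cells, against 148, 149 and 120 in Nestin-negative cells. Neither overlapped, but in both Nestin-positive replicate 4 came close to the Nestin-negative arrays. Adjusted p-values with the block were 0.141 for Palb2 and 0.137 for Brip1, and Brip1 passed without the pair of replicate 4 (log2 change 0.69, adjusted p = 0.0416). Bard1, the obligate partner of BRCA1 in the ligase, was dim, with intensities of 53.9 to 127 in Nestin-positive and 72.5 to 110 in Nestin-negative cells, and its log2 change of 0.11 ± 0.35 (SE) leaves its direction unsettled.

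The genes of strand exchange were mixed. Rad51ap1, whose protein stimulates strand pairing, had intensities of 3469, 3444, 2904 and 3013 in Nestin-positive cells, against 2410, 2331 and 2581 in Nestin-negative cells. The fractions did not overlap, and the log2 change was 0.39 ± 0.11 (SE; limma, adjusted p = 0.142; 0.36 ± 0.10 and 0.0321 with the block). Its 3 other probe sets had log2 differences of 0.23, 0.36 and 0.41, and the fractions did not overlap for 2 of them.

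Rad54l, a motor protein that moves along duplex DNA during strand exchange, had intensities of 1586, 1160, 1315 and 1277 in Nestin-positive cells, against 1164, 988 and 896 in Nestin-negative cells. The fractions overlapped only where Nestin-positive replicate 3, which has no partner, fell just under Nestin-negative replicate 1. Within the 3 pairs the log2 differences were even, at 0.45, 0.41 and 0.51, and the block gave 0.46 ± 0.11 (SE, adjusted p = 0.0088; 0.39 ± 0.15 and 0.251 without it). Rad54l has 2 dimmer probe sets at or above the array median on all arrays, with log2 differences of 0.29, where the fractions overlapped, and 0.41, where they did not.

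Xrcc3, whose protein works in a complex with that of Rad51c, had intensities of 346, 169, 290 and 309 in Nestin-positive cells, against 190, 201 and 218 in Nestin-negative cells. Nestin-positive replicate 3 was the lowest of all 7 arrays, and the other 3 Nestin-positive arrays lay above every Nestin-negative one. Because the block rests on the pairs, replicate 3 does not enter its estimate, and the log2 change was 0.63 ± 0.17 (SE, adjusted p = 0.020) with the block and 0.41 ± 0.24 (adjusted p = 0.50) without it. The other Xrcc3 probe set that passed the filter overlapped between fractions. Its log2 change with the block was 0.38 (limma over all probe sets, adjusted p = 0.437). With the mean of the probe sets, the block gave 0.51 (limma, adjusted p = 0.0769).

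The other members of this class did not pass in either fit. Rad51c, the partner of XRCC3, had intensities of 391 to 451 in Nestin-positive and 373 to 402 in Nestin-negative cells (log2 change 0.13 ± 0.13 SE). Rad54b, a relative of Rad54l, had 431, 208, 271 and 220 in Nestin-positive cells, against 239, 212 and 202 in Nestin-negative cells. The top value was on Nestin-positive replicate 1, the fractions overlapped, and the adjusted p was 0.132 with the block. Rad52, which in yeast is the main mediator and in mammals has a back-up role, had 173 to 271 in Nestin-positive and 165 to 286 in Nestin-negative cells. Its log2 change of 0.02 had a 95% interval of -0.51 to 0.56, which leaves room for changes of the size seen in the members that were called.

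**Figure D3:**
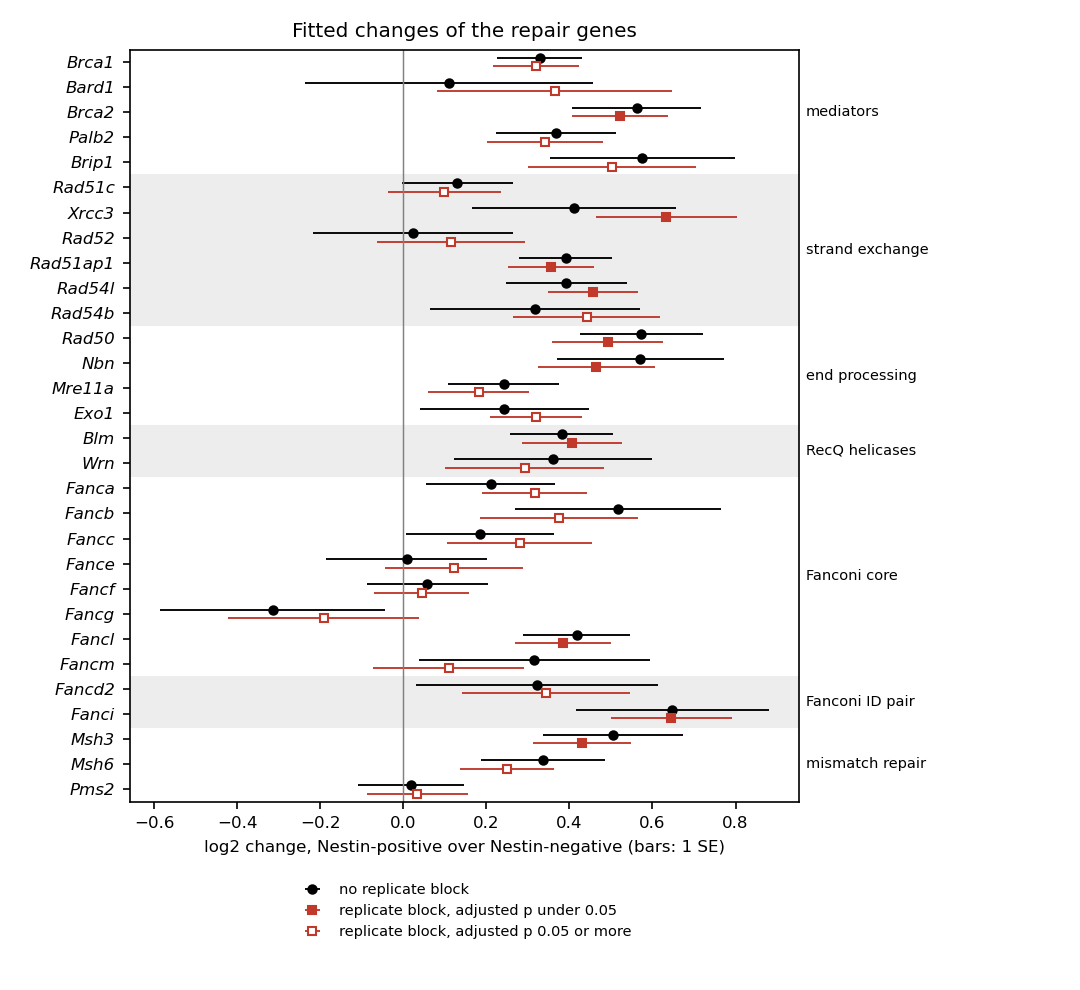
Fitted log2 change of each repair gene, Nestin-positive over Nestin-negative (x axis; bars are 1 SE), with genes in rows by role (y axis); black circles are the fit without the replicate block and squares the fit with it, filled where the adjusted p was under 0.05. The 10 filled squares lie between 0.36 and 0.65, and Fancg is the only gene left of 0.

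Among the end-processing genes, Rad50 and Nbn were past the threshold with the block. RAD50, MRE11 and NBN form the complex that binds broken ends and starts their trimming. Rad50 had intensities of 571, 692, 530 and 559 in Nestin-positive cells, against 383, 445 and 357 in Nestin-negative cells. The fractions did not overlap, and the log2 change was 0.57 ± 0.15 (SE; limma, adjusted p = 0.112; 0.49 ± 0.13 and 0.0216 with the block). A second Rad50 probe set was dim on all 7 arrays, under the array median, and is not interpreted.

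Nbn had intensities of 509, 727, 554 and 567 in Nestin-positive cells, against 293, 496 and 418 in Nestin-negative cells. Nestin-positive replicate 1 exceeded Nestin-negative replicate 4 by little, and each pair was higher in the Nestin-positive sample by unequal amounts (0.80, 0.16 and 0.44 on the log2 scale for replicates 1, 4 and 5). With the block the log2 change was 0.46 ± 0.14 (SE, adjusted p = 0.0396), and without it 0.57 ± 0.20 (adjusted p = 0.229). Mre11a, the nuclease of the complex, had 625 to 780 in Nestin-positive and 531 to 618 in Nestin-negative cells. These did not overlap either, but its change was smaller, at 0.24 ± 0.13 (SE; 0.18 ± 0.12 and adjusted p = 0.432 with the block).

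Exo1, the exonuclease that extends resection and also removes the mismatched strand in mismatch repair, had intensities of 974, 1070, 1469 and 1626 in Nestin-positive cells, against 859, 1158 and 1202 in Nestin-negative cells. The spread among the Nestin-positive arrays exceeded the difference between the means, while each pair was higher on its Nestin-positive side. The adjusted p was 0.651 without the block and 0.0753 with it (log2 change 0.32 ± 0.11 SE).

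Of the RecQ helicases, Blm, which dissolves joined recombination intermediates, had intensities of 987, 814, 808 and 822 in Nestin-positive cells, against 654, 677 and 636 in Nestin-negative cells. The fractions were well apart, with replicate 1 standing above the other 3 Nestin-positive arrays. The log2 change was 0.38 ± 0.12 (SE; limma, adjusted p = 0.190; 0.41 ± 0.12 and 0.0350 with the block). Wrn, the helicase gene of Werner syndrome, had 169 to 339 in Nestin-positive and 182 to 207 in Nestin-negative cells. Its lowest and highest arrays were both Nestin-positive, and it passed in neither fit.

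In the Fanconi pathway, Fanci and Fancl were past the threshold with the block. Fanci, a component of the clamp that the core complex ubiquitinates, had intensities of 524, 399, 317 and 372 in Nestin-positive cells, against 339, 192 and 248 in Nestin-negative cells. Its fractions overlapped, replicate 1 being the highest of both, and the pair differences were close to each other, at 0.63, 0.72 and 0.58 on the log2 scale. The block gave 0.65 ± 0.15 (SE), or 1.56-fold (adjusted p = 0.0063), against an adjusted p of 0.234 without it. Fanci was called in all 8 settings that used the block. Its other probe set was under the array median throughout.

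Fancd2, the partner of FANCI, had intensities of 347, 212, 165 and 199 in Nestin-positive cells, against 225, 197 and 126 in Nestin-negative cells. It was lower in the Nestin-positive sample of pair 4 and passed in neither fit (0.34 ± 0.20 SE on the log2 scale, adjusted p = 0.357 with the block). With the block but without the pair of replicate 4, Fancd2 passed (limma, adjusted p = 0.0457). A second probe set of similar brightness had a log2 difference of 0.59 and was higher in all 3 pairs, so the probe sets of Fancd2 differ on pair 4.

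Fancl, the ubiquitin ligase subunit of the core complex, had intensities of 831, 955, 974 and 823 in Nestin-positive cells, against 603, 734 and 676 in Nestin-negative cells. The fractions did not overlap, and the log2 change was 0.42 ± 0.13 (SE; limma, adjusted p = 0.172; 0.39 ± 0.12 and 0.0390 with the block). The block call was lost in 6 of the 8 settings that used it, with adjusted p-values up to 0.215. The other 7 core genes did not pass in either fit, and all of them overlapped between fractions.

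Among these core genes, Fancb, a scaffold of the ligase module, had 211 to 394 in Nestin-positive and 190 to 215 in Nestin-negative cells, with Nestin-positive replicates 1 and 3 high and the other arrays alike. Fanca, which pairs with FANCG, had 521 to 771 in Nestin-positive and 516 to 615 in Nestin-negative cells. Fancc and Fancm had log2 changes of 0.18 ± 0.18 and 0.31 ± 0.28 (SE). A dim Fancc probe set, left out by the filter, went the other way without overlap. It had 26.35 to 60.94 in Nestin-positive and 66.01 to 76.61 in Nestin-negative cells. FANCM is the translocase that anchors the core complex on DNA. Fance and Fancf, adaptors of the core, were near 0, with 95% intervals of the log2 change from -0.43 to 0.44 and from -0.27 to 0.38.

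Fancg, a scaffold that binds FANCA, was the member with a negative change. It had intensities of 149, 88.6, 135 and 96.5 in Nestin-positive cells, against 151, 171 and 112 in Nestin-negative cells. In each pair the Nestin-positive value was the lower one, with log2 differences of -0.02, -0.34 and -0.22, yet the arrays overlapped and the change of -0.31 ± 0.27 (SE, adjusted p = 0.660) passed in neither fit. A dimmer Fancg probe set, below the array median on all arrays, had a log2 difference of 0.02.

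**Figure D4:**
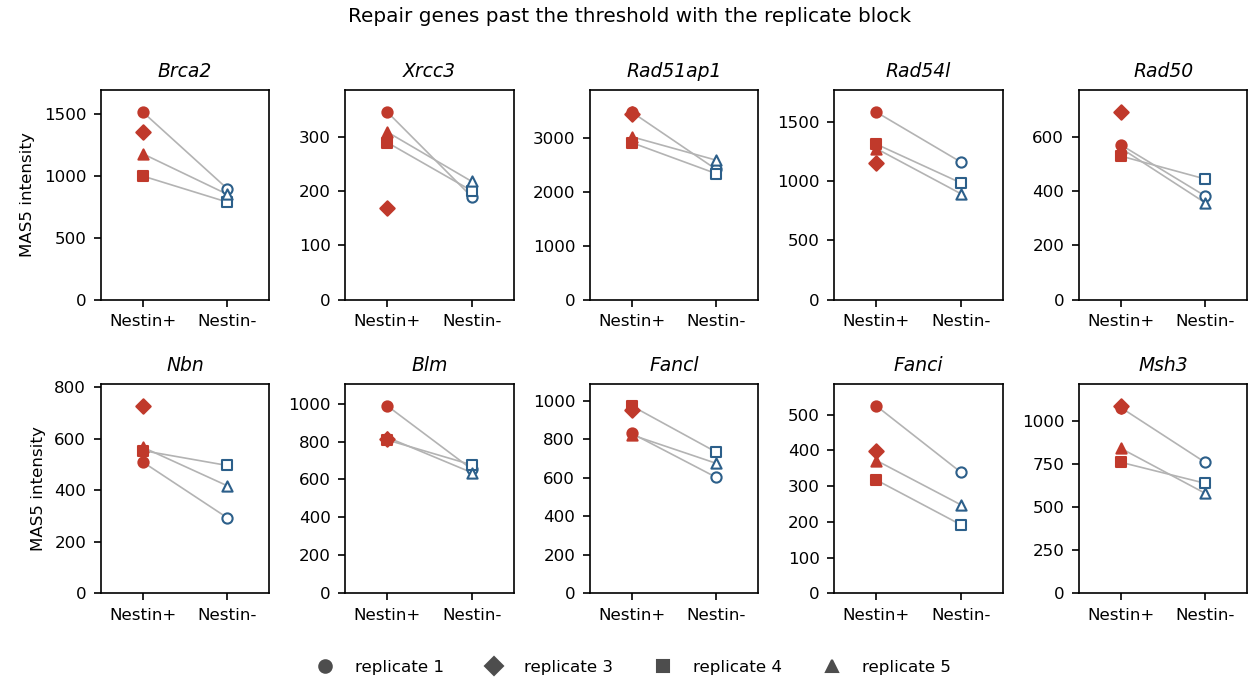
MAS5 intensity (y axis, linear, from 0) of the 10 repair genes past the threshold with the replicate block, in Nestin-positive (red, left) and Nestin-negative (blue, right) samples; symbol shapes give replicates and grey lines join the samples of a pair. All 30 lines slope down from the Nestin-positive to the Nestin-negative sample, and Nestin-positive replicate 3 has no partner.

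The mismatch repair genes differed among themselves. Msh3, whose protein recognises small loops left by replication, had intensities of 1076, 1086, 759 and 840 in Nestin-positive cells, against 759, 638 and 579 in Nestin-negative cells. The lowest Nestin-positive and the highest Nestin-negative array were almost equal. The log2 change was 0.51 ± 0.17 (SE; limma, adjusted p = 0.201; 0.43 ± 0.12 and 0.0228 with the block). The other Msh3 probe set that passed the filter, at or above the array median on 3 arrays, overlapped between fractions. Its log2 change with the block was 0.10 (limma over all probe sets, adjusted p = 0.916). With the mean of the probe sets that passed, the block gave 0.265 (limma, adjusted p = 0.315).

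Msh6, whose protein recognises single mismatches, had 2635, 2947, 1900 and 2485 in Nestin-positive cells, against 1902, 1976 and 1966 in Nestin-negative cells. The Nestin-negative arrays were alike, and Nestin-positive replicate 4 lay with them, and the gene passed in neither fit (adjusted p = 0.192 with the block; 0.0078 without the pair of replicate 4). Pms2, an endonuclease gene of mismatch repair, had 711 to 775 in Nestin-positive and 662 to 837 in Nestin-negative cells. Its log2 change of 0.02 had a 95% interval of -0.27 to 0.30, which lies below the fitted changes of Rad50, Brca2 and Fanci.

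Among the members, probe sets of the same gene that passed the filter mostly pointed the same way. Of the 68 probe sets, 52 passed the filter, and of the 22 that did not stand for their gene 20 had a log2 difference above 0. The 2 below 0 belonged to Fance and Pms2, the genes whose changes were close to 0. Of the 16 member probe sets left out as dim, 10 had a log2 difference above 0. For 14 of the 52 the fractions did not overlap, all higher in Nestin-positive cells (of all probe sets that passed, 4.66% did not overlap and were higher, and 6.68% lower). Limma called 0 of the 52 over all 23585 probe sets that passed (0% of all were higher). At an unadjusted p under 0.05 there were 16 of the 52, all higher, against 3.86% of all probe sets higher and 5.82% lower. With the block 3 were called, those of Brca2, Rad54l and Fanci (1.26% of all were higher and 3.01% lower).

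The size of the difference varied with the pair. The median log2 difference over the 30 members was 0.45 in pair 1, 0.21 in pair 4 and 0.35 in pair 5, where the median over all genes was -0.03, 0.00 and -0.02. In these pairs 26, 22 and 29 members were higher in the Nestin-positive sample, against 46.11%, 49.45% and 46.91% of all genes. In all 3 pairs 20 members were higher, for which the share of all genes was not counted. Relative to each gene's mean over the arrays, the median of the members was 0.26, 0.16, 0.08 and 0.09 on Nestin-positive replicates 1, 3, 4 and 5, against -0.19, -0.17 and -0.23 on Nestin-negative replicates 1, 4 and 5. The fractions were apart on this scale, with Nestin-positive replicate 1 the highest. That array held the highest value of 13 of the 30 members, and Nestin-negative replicate 5 the lowest value of 10. The shares of all genes with their highest or lowest value there were not counted.

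Other genes of these pathways had a smaller median change, a difference that was not tested. Of 52 listed, 47 had a probe set and 45 were tested, and their median log2 change was 0.14 with 34 above 0. Limma called 0 of the 45 (8 at an unadjusted p under 0.05, 7 of them higher, against 5.33% of all genes higher and 9.09% lower). With the block 3 were higher and 0 lower, where 3.58% of all genes were called higher and 6.39% lower. These were Fignl1, an ATPase gene of homologous recombination (0.46 ± 0.12 SE, adjusted p = 0.0125), Parpbp, which limits recombination (0.75 ± 0.19, adjusted p = 0.0133), and Pms1, a mismatch repair gene (0.45 ± 0.14, adjusted p = 0.0437). The next by p-value were Ube2t, the E2 enzyme that works with FANCL (0.32 ± 0.11, adjusted p = 0.0880), Uimc1, a member of the BRCA1-A complex, the nuclease gene Dna2 and Rad51b (log2 changes of 0.31 to 0.63, adjusted p-values of 0.0932 to 0.103). Ercc4, a nuclease gene of crosslink repair, went the other way, with 153 to 173 in Nestin-positive and 184 to 263 in Nestin-negative cells (-0.49 ± 0.19 with the block, adjusted p = 0.125).

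Genes of cell division lay higher in the Nestin-positive fraction too. All 29 measured genes of a G2 and mitosis list were above 0, with a median log2 change of 0.46, and limma called 0 (21 at an unadjusted p under 0.05), with 22 higher under the block. The 30 genes of an S phase list had a median of 0.22 with 26 above 0, and limma called 0 (6 at an unadjusted p under 0.05), with 3 higher under the block. Of all genes, 5.33% were higher at an unadjusted p under 0.05 without the block, and 3.58% were called higher with it. The order of the arrays differed between the lists. Nestin-positive replicate 1, the highest array for the repair genes, stood at -0.08 for the S phase list, below Nestin-negative replicates 4 (-0.06) and 5 (0.00). Nestin-negative replicate 1 was the lowest array for S phase (-0.25) and for G2 and mitosis (-0.50), but lay between the other Nestin-negative arrays for the repair genes. Array medians were highest on Nestin-positive and Nestin-negative replicate 1, at 93.7 and 94.5, against 64.4 to 84.1 on the other arrays. Whether this bears on the order of the arrays was not tested. The part of cell division in the repair result was not tested either.

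**Figure D5:**
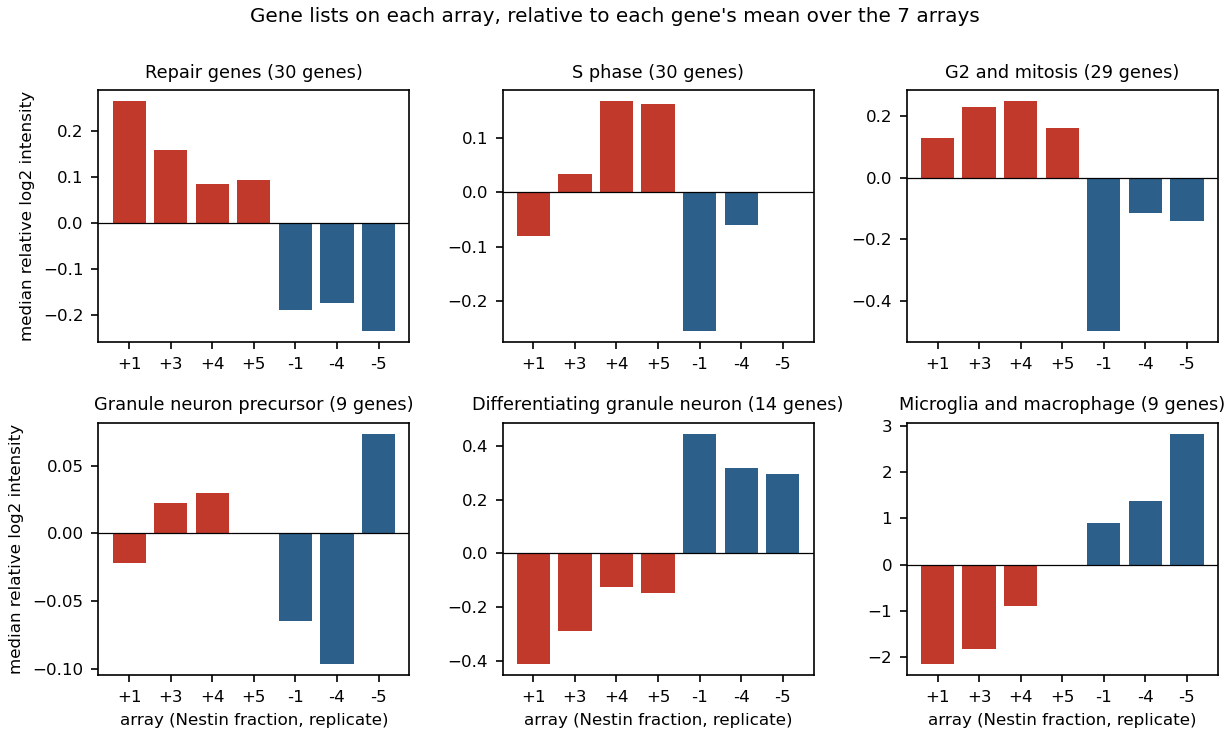
Median over the genes of each list of the log2 intensity relative to the gene's mean over the 7 arrays (y axis, scale set per panel) on each array (x axis, Nestin fraction and replicate); red bars are Nestin-positive and blue bars Nestin-negative arrays. The repair genes lie between 0.08 and 0.26 on Nestin-positive and between -0.23 and -0.17 on Nestin-negative arrays, while the microglia list spans -2.14 to -0.03 on Nestin-positive and 0.90 to 2.82 on Nestin-negative arrays.

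Markers of several other cell types lay the opposite way. The summed intensity of the 14 measured markers of differentiating granule neurons was 61010 to 73520 on Nestin-positive and 83420 to 93800 on Nestin-negative arrays, with 13 of the 14 changes below 0 and 4 called lower by limma (10 with the block). That of the 9 measured microglia and macrophage markers was 291 to 1094 on Nestin-positive and 2077 to 7925 on Nestin-negative arrays, with all 9 changes below 0 and 2 called lower (9 with the block). That of the 7 pericyte and smooth muscle markers was 557 to 1909 on Nestin-positive and 1288 to 9163 on Nestin-negative arrays, which overlapped, with 0 called (6 at an unadjusted p under 0.05, all lower) and 6 lower with the block. Markers of meningeal fibroblasts (5 measured) summed to 3546 to 5463 on Nestin-positive and 4988 to 10810 on Nestin-negative arrays, which overlapped too, with 0 called (4 at an unadjusted p under 0.05, all lower) and 4 lower with the block. Endothelial markers (8 measured) summed to 408 to 1730 on Nestin-positive and 609 to 1860 on Nestin-negative arrays, overlapping as well, with 0 called in either fit (0 at an unadjusted p under 0.05 without the block and 4 with it). Overlap was also found for the 10 astrocyte and Bergmann glia markers (2 higher and 4 lower with the block), at 9956 to 30530 on Nestin-positive and 7635 to 21450 on Nestin-negative arrays, and the 4 oligodendrocyte lineage markers (2 higher and 1 lower with the block), at 3152 to 4500 on Nestin-positive and 3636 to 4247 on Nestin-negative arrays. The 3 measured GABAergic interneuron markers summed to 2779 to 3529 on Nestin-positive and 4074 to 5197 on Nestin-negative arrays, with 2 lower under the block. A marker could pass the filter through the 3 Nestin-negative arrays alone. Of the 9 microglia markers, 0 to 6 were at or above the median on Nestin-positive and 8 to 9 on Nestin-negative arrays. For the 3 GABAergic markers it was 1 to 2 and 3. The shared direction within these lists is therefore not independent of the filter. No marker was at 0 on any array. The part of these cells in the repair result was not tested, and precursors, marked by the 9 genes above, had a median log2 change of 0.04 (5 of 9 above 0). Limma called 0 of these 9 (2 at an unadjusted p under 0.05, both higher), and with the block 3 were higher: Atoh1 (0.35 ± 0.10 SE, adjusted p = 0.0366), Barhl1 (0.42 ± 0.11, adjusted p = 0.0141) and Ccnd1 (0.34 ± 0.10, adjusted p = 0.028). With the block 0 were called lower. Zic1, Zic2, Pax6 and Mycn were below 0 without the block (log2 changes of -0.18, -0.22, -0.16 and -0.08). Zic1 was the 1 marker of the 9 whose fractions did not overlap, and it was lower in Nestin-positive cells.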

How the data were processed

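Expression was measured in 7 samples on 1-colour Affymetrix mouse arrays from Trizol-extracted, biotin-labelled RNA, per the labels' protocols. Per the submitters' processing notes the authors deposited MAS5 values, which are linear intensity; its version and a genome build are not given in the sources used here. Each deposited array had a trimmed mean of 500 (2% off each end), and array medians ran from 64.4 to 94.5. Mismatch subtraction in MAS5 makes ratios of dim values noisy.

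Of 45101 probe sets 64 controls were left out. By the platform annotation 34945 probe sets had 1 gene, 932 several and 9160 none; 34741 were matched to RefSeq symbols (GRCm38.p6) through their Entrez ID. Log2 intensity was taken without a pseudocount. Probe sets at or above the array median on at least 3 arrays were kept, and the brightest stood for its gene. Groups came from the sample titles. A two-sided limma fit (limma 3.58.1, R 4.3.3, moderated with an intensity trend) used all 7 arrays, with Benjamini-Hochberg adjustment over all 11089 genes and a threshold of 0.05. Without the block it was tested on simulated data, with changes larger than that of any member. The simulation therefore does not cover the block fit or changes of the members' size. Deviations of same-numbered samples from their group means correlated at 0.70, 0.39 and 0.47 (replicates 1, 4 and 5; computed over genes, not independent replicates), against -0.60 to 0.19 for other combinations; the pairing is thus an assumption drawn from the data, not from the labels. The block fit has 2 residual degrees of freedom per gene, 19.8 after moderation, so its errors rest mostly on spread pooled over genes. Alternatives changed the normalization, filter, probe set choice, treatment of dim values, variance model, pairing and samples. Named genes are the 31 members, Nes, the 8 other pathway genes with the smallest p-values with the block, and markers from the list of granule neuron precursors; per-array values are given for members called with the block and the 3 next by p-value, and were added after seeing the values for Palb2, Brip1, Fancd2, Fancg and Msh6; levels are not compared between probe sets of different genes. The members, lists and tests were chosen with earlier results of these data known.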

Additional observations from a re-analysis of the deposited data

Results flagged for a closer look

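Blm on Nestin-positive replicate 1, at an intensity of 987 where the other 3 of its group had 808 to 822, stood apart by 0.916 of its group's range on the log2 scale and so beyond Dixon's 95% critical value for 4 samples. This check covered 30 groups of 4, and chance marks about 1 in 20. Without Nestin-positive replicate 1 the log2 change of Blm was 0.31 (limma, adjusted p = 0.358), against 0.38 (adjusted p = 0.190) with all arrays.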

How the results depend on the processing

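With the arrays unpaired, limma called 0 members in either direction under every setting run, including without each array in turn. The calls come only with the replicate block, which gave 10 members higher, or 3 by probe set. With the block and quantile normalization it was 5, with the mean of a gene's probe sets 7, with dim values raised to the array median 7, without an intensity trend 1, and without the pair of replicate 1, 4 or 5 it was 2, 12 and 3, the cause of which was not tested; the changes of processing under the block were chosen after seeing the data. No member was called lower in any of them. The median of the members stayed between 0.30 and 0.39 over all settings. Over all genes, 19 were higher and 64 lower unpaired, and 397 and 709 with the block; 9 and 13 with quantile normalization; 39 lower with no filter; 29 lower with the mean of a gene's probe sets; 98 lower with dim values raised; and 0 either way without trend (1573 at an unadjusted p under 0.05). Without 1 array, 0 to 16 were higher and 0 to 77 lower. With the block, quantile normalization gave 270 and 532, the mean of probe sets 328 and 633, raised values 336 and 644, no trend 75 and 345, and leaving out the pair of replicate 1, 4 or 5 gave 180, 614 and 320 higher and 515, 832 and 549 lower. Signs turned for 6 members, each overlapping between fractions. Fance was -0.007 with quantile normalization and -0.004 with the mean of probe sets. Without 1 array, Bard1 ran from -0.049 to 0.364, Fance from -0.145 to 0.121, Rad52 from -0.138 to 0.259, Pms2 from -0.050 to 0.120 and Fancf from -0.038 to 0.151. With the block, Fancm was -0.001 without the pair of replicate 1, and without that of replicate 5 Fance was -0.101 and Pms2 -0.062. Signal near background limits Bard1 and Fancg, and 4 and 3 arrays limit all values.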
